A study of Mus musculus with 6 samples.

Results

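The transcriptome of the wild-type mouse testis at postnatal day 4 was described from the 3 arrays labelled wild type, which were chosen by their genotype label alone. The series holds 6 arrays of whole testis from mice of the FVB strain at that age, on 1 slide. The other 3 are labelled Foxo1 null, and none of their values is given here. They entered 1 alternative normalization, run over all 6 arrays, and may have shaped the authors' normalized intensities, used as another. The 3 wild-type samples carry no allele, agent or treatment in their labels, which do not say whether each came from a separate animal or from pooled testes. The spread between arrays given below may therefore be technical in part.

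In the first days after birth the mouse testis consists of seminiferous cords, in which dividing Sertoli cells surround germ cells that are turning from gonocytes into spermatogonia. Contractile peritubular myoid cells wrap the cords, and the interstitium between them holds steroid-producing Leydig cells of the fetal generation, fibroblasts, vessels and resident macrophages. Meiosis begins later in the first wave of spermatogenesis, and spermatids later still, so that the tissue at this age is rich in somatic cells.

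Each array measured 45281 probes as a mean bead intensity from the scanner, in arbitrary intensity units, with a detection p-value that compares the probe with the negative controls of the same array. A probe was called detected at a detection p-value under 0.05. Between 20107 and 20518 probes were detected on a single array, the median probe was read from 43 beads, and the median signal was 116, 124 and 132 units on replicates 1, 2 and 3. Signals below are given in that order of replicates. They are not normalized between arrays, so the highest or lowest array named for a single gene is that of its scanner signal. In this bulk RNA a low marker signal can come from fewer cells of a type or from less RNA per cell, and these cannot be told apart. Probes also differ in how well they bind their target, so the order of brightness between genes is an order of signal and not of transcript number.

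On all 3 arrays 17712 probes were detected, 39.1% of the total. Another 2029 were detected on 2 arrays, 3800 on 1 array and 21740 on none. Of the 19057 genes named by a probe, 9960 had at least 1 probe detected on all 3 arrays, which is 52.3%, and 6727 had none detected on any array. With each gene read by its brightest probe the count was 9944 genes, or 52.2%, and that share is the background for the marker counts below. Probes of the same gene often disagreed. Among 9172 genes with several probes, 2184 had all of them detected on 3 arrays, and 2953 had 1 probe detected on 3 arrays and another on none. An undetected probe thus does not show that its gene was off.

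The brightest genes were those of protein synthesis and chromatin. Of the 30 brightest named genes, 16 encoded ribosomal proteins, led by Rpl41 with 46600, 51031 and 49542 units, and 5 encoded histone H2A, whose gene copies are nearly identical and may share signal. Cytochrome b (CYTB) and ND4, of the mitochondrial genome, were also among them. The remaining 7 were Gstm2, Eef1a1, Ppia, Aard, Ubb-ps, Tuba1b and Gm6548, of which Ubb-ps and Gm6548 are named as copies of other genes, so that their signal is uncertain. Gstm2, a glutathione S-transferase, gave 44057, 45847 and 44792 units, and its other 2 probes were bright too, at 39633, 41185 and 44637 units and at 20083, 16480 and 20633 units. The translation elongation factor Eef1a1 gave 42261, 46519 and 44132 units. These signals differed little between the arrays.

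Products of named testis cell types stood among the ribosomal genes in this order, Aard among the first 30. Dlk1, an imprinted gene of interstitial and fetal Leydig cells, gave 26972, 31637 and 23568 units, highest on replicate 2. The insulin-like growth factor Igf2 gave 18580, 19878 and 17662 units. Gja1, which encodes the gap junction protein connexin 43, gave 22402, 22522 and 18206 units. These genes were all lowest on replicate 3. The alpha globin Hba-a1, which has a nearly identical copy, gave 13605, 20065 and 19245 units, lowest on replicate 1. The brightest 100 probes carried between 14.9% and 15.0% of the summed signal of an array, and the brightest 1000 between 44.5% and 45.4%.

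Germ cell markers were detected broadly but at a lower median signal than markers of Sertoli cells. In the list of general germ cell markers 23 of 29 genes (79.3%) were detected on all 3 arrays, beside 52.2% of all named genes. Their median normalized level, on the log2 scale of the neqc method in limma, was 7.34 ± 0.29 (SD of the 3 array medians, all members of the list), against 5.62 for all named genes. Tuba3a, a testis alpha tubulin with a nearly identical gene copy, gave 2937, 2466 and 4216 units. Tex19.1, a germ cell factor that restrains retrotransposons, gave 1341, 1177 and 2402 units. Dazl, an RNA-binding protein required for germ cell development, gave 1054, 1226 and 1803 units. All of them were highest on replicate 3.

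Other general germ cell genes were highest on replicate 3 as well. Taf7l, a germ cell variant of a general transcription factor subunit, gave 1016, 982 and 2112 units. Dnd1, which binds RNA and is needed for germ cell survival, gave 935, 819 and 1128 units, and Dppa4, a chromatin protein of pluripotent and early germ cells, gave 816, 680 and 851 units. Several genes of the piRNA pathway, which silences transposons, were detected as well. Piwil2 gave 634, 522 and 926 units, and its partners Gtsf1, Tdrkh and Asz1 had means of 591, 590 and 557 units. Other genes of the pathway were dim or undetected: Tdrd1 had a mean of 145 units, Piwil4 was detected on 1 array only and Mael on none. The germ cell helicase Ddx4 was dim by its only detected probe, at 153, 170 and 209 units, and its other 2 probes were not detected. Dppa3, Hormad1, Mael and Tex15 were detected on no array by any probe.

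Markers of undifferentiated spermatogonia, the compartment with the stem cells, were detected for 17 of 24 genes (70.8%), with a median level of 7.16 ± 0.24. Ddit4, an inhibitor of mTORC1 that many cells express, was the brightest at 2150, 1708 and 1223 units, lowest on replicate 3. Egr4, a zinc finger factor of male germ cells, gave 1436, 1256 and 1630 units, and Sall4, a transcription factor of spermatogonia, gave 881, 583 and 1238 units. Both were highest on replicate 3. Ret, the signalling receptor for the niche factor Gdnf, gave 458, 351 and 474 units, Tcl1, a co-activator of AKT, gave 697, 536 and 672 units, and Id4, an inhibitor of DNA binding used to mark stem cells, gave 616, 490 and 505 units. These 3 genes were lowest on replicate 2. Gfra1, the co-receptor of Ret, was not detected by its single named probe, at 108, 120 and 123 units, and Pax7 and Shisa6 were not detected either.

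Foxo1, the transcription factor whose loss the series studies and itself a marker of undifferentiated spermatogonia, gave 339, 340 and 379 units by its brighter probe. Its other probe was near the detection limit at 136, 136 and 133 units and was detected on 2 arrays. Foxo3 gave 201, 190 and 230 units by 1 of its 3 probes, the others being undetected. Foxo4 gave 97.4, 116 and 140 units and was detected on 1 array. Of these 3 related factors, Foxo1 and Foxo3 were thus detected on every wild-type array.

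The list of differentiating spermatogonia was detected for 11 of 12 genes (91.7%), with a median level of 8.11 ± 0.42. Its brightest members were Uhrf1, which maintains DNA methylation at replication, at 4824, 4470 and 4175 units, and the cell cycle gene Ccnd2 at 3631, 3505 and 2592 units, and both are used by dividing somatic cells too. The germ cell genes of the list ran the other way across the arrays. Sohlh1, a transcription factor that starts spermatogonial differentiation, gave 1290, 932 and 2902 units, and a second probe gave 1054, 901 and 2891 units. Stra8, the retinoic acid target that precedes meiosis, gave 146, 150 and 372 units. Dnmt3b, a DNA methyltransferase, gave 1320, 1183 and 2216 units. Each was highest on replicate 3. Kit, the receptor that marks differentiating cells, was highest there too but varied less, at 411, 524 and 576 units by its brightest probe. A second Kit probe was detected on 1 array and a further probe on none. Kdm1b, a histone demethylase, gave 441, 480 and 567 units.

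Markers of later germ cells were less often detected. Of 24 meiotic genes, 9 (37.5%) were detected on all 3 arrays and 10 on none, a smaller share than the 52.2% of all named genes. The detected members were led by Hspa2, a chaperone of spermatocytes, at 845, 919 and 766 units, the meiotic cohesin Stag3 at 720, 719 and 966 units, and the X-linked gene Tex11 at 397, 422 and 712 units. Syce1, Syce2 and Syce3, of the central element of the synaptonemal complex, had means of 443, 399 and 430 units. The undetected members were Sycp3, Dmc1, Msh4, Mei1, Meiob, Mybl1, Spata16, Pgk2, Ccna1 and Adam2. They include a structural part of the chromosome axis, a recombinase and genes that serve pachytene cells and sperm. Of 20 spermatid genes only Spaca1, of the acrosome membrane, was detected on 3 arrays, at 138, 140 and 162 units, close to the limit. The protamines Prm1 and Prm3 gave no detected signal, with means of 119 units for Prm1 and 106 units for Prm3.

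Sertoli cell markers were bright. In their list 26 of 31 genes (83.9%) were detected on all arrays, with a median level of 9.92 ± 0.25, against 5.62 for all named genes. Aard, a gene of fetal and newborn Sertoli cells, gave 31130, 33391 and 42313 units, highest on replicate 3. Defb19, a beta-defensin made by Sertoli cells, gave 28897, 24860 and 17458 units, in the opposite order. Cst12, a cystatin of Sertoli cells, gave 10373, 8498 and 10655 units. Inha, the alpha subunit of the hormone inhibin, gave 9790, 8292 and 7283 units, and Hsd17b1, an estradiol-forming enzyme, gave 10644, 8568 and 5564 units. The X-linked homeobox gene Rhox8 gave 7639, 8045 and 8095 units. The brightest Sertoli genes thus did not share an order of arrays.

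Regulators and signals of Sertoli cells were present with the structural products. Sox9, the transcription factor that establishes Sertoli fate, gave 6257, 7004 and 7408 units. Dhh, the hedgehog ligand that acts on Leydig and myoid precursors, gave 5647, 5437 and 5053 units. Amh, the hormone that removes the female duct, gave 1524, 956 and 833 units, highest on replicate 1. The receptor of follicle-stimulating hormone, Fshr, gave 1124, 1134 and 1073 units, with little difference between arrays, and Gdnf, the niche factor for spermatogonia, gave 1776, 1526 and 1011 units, lowest on replicate 3. Cldn11, a tight junction claudin of the Sertoli barrier, gave 5242, 5689 and 9292 units and was highest on replicate 3. Nr0b1, Fgf9, Gata1 and Erbb4 were detected on no array. Kitl, the ligand of Kit, was detected on 1.

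Leydig cell markers were detected for 16 of 20 genes (80%), with a median level of 8.67 ± 0.18. Insl3, the hormone of testis descent, gave 7636, 6619 and 5468 units by 1 probe and 1220, 915 and 936 units by another. Cyp17a1, the enzyme that turns progestogens into androgens, gave 6533, 3979 and 2826 units. Both genes were brightest on replicate 1, and Cyp17a1 differed 2.31-fold between its highest and lowest array. The early steps of steroid synthesis were much closer to the limit. Star, which moves cholesterol into mitochondria, gave 198, 170 and 156 units, Cyp11a1, which cleaves its side chain, gave 262, 278 and 257 units by its brightest probe, and Hsd3b1 had a mean of 207 units. Other bright members, Aldh1a1 at 10165, 9847 and 7695 units, Fads1 at 7094, 7374 and 6534 units and the glypican Gpc3 at 4652, 4884 and 4075 units, are made by other cell types as well. Mgst1, a glutathione transferase, gave 3372, 3508 and 4137 units. Mc2r, Hsd3b6 and Fdx1 were undetected.

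Genes that mark the adult generation of Leydig cells were detected for 5 of 8 (62.5%), beside 52.2% of all named genes. Hsd17b3, which makes testosterone and in the fetal mouse testis is a Sertoli cell enzyme, gave 1217, 1106 and 940 units. Ptgds, which is also in the Sertoli list, gave 937, 579 and 542 units, and Vcam1, an adhesion molecule, gave 510, 692 and 604 units. Hsd11b1, which reactivates glucocorticoids, and Akr1c14, which reduces steroids, were dim, with means of 187 and 157 units. Hsd3b6, Cyp2a4 and Sult1e1, a steroid dehydrogenase, a cytochrome P450 and a sulfotransferase that mature Leydig cells express, were not detected.

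Peritubular myoid genes were detected for 13 of 17 (76.5%), with a median level of 9.24 ± 0.07. Smooth muscle actin, Acta2, gave 22035, 26478 and 26880 units by the brightest of its 6 probes, of which 4 were detected. Mylk, the kinase that starts smooth muscle contraction, gave 8463, 10150 and 8830 units, and the myosin light chain Myl9 gave 3687, 4099 and 4508 units. Myh11, the smooth muscle myosin heavy chain, was dimmer at 762, 897 and 881 units. These 4 genes were all lowest on replicate 1. Pdgfra, a growth factor receptor shared with interstitial fibroblasts, gave 4382, 4678 and 3716 units, and the actin linker Actn1 gave 1845, 1914 and 1978 units. The tropomyosin Tpm2 had a mean of 1020 units, and Cnn1 and Synpo2 were undetected.

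Interstitial fibroblast genes were detected for 18 of 19 (94.7%), with a median level of 10.34 ± 0.13, the highest median among the cell type lists. Decorin (Dcn), a matrix proteoglycan, gave 18386, 22446 and 19513 units. The collagens Col3a1 and Col1a1 gave 3223, 3865 and 2905 units and 2596, 3022 and 2894 units. Ogn, another matrix proteoglycan, gave 2626, 3439 and 2386 units, and the transcription factor Tcf21 gave 2117, 2247 and 2031 units. All of these were highest on replicate 2, as were 16 of the 18 detected members, beside 3577 of all 9944 detected genes. Fbln5 was undetected.

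Endothelial genes were detected for 19 of 22 (86.4%), at a lower median of 7.27 ± 0.18. Ramp2, a co-receptor for adrenomedullin, gave 2380, 2179 and 1856 units. Egfl7, a secreted endothelial factor, gave 878, 964 and 1001 units, the transcription factor Sox18 gave 995, 919 and 868 units, and the adhesion molecule Esam gave 828, 762 and 847 units. Robo4, a guidance receptor of vessels, gave 639, 717 and 712 units, and the transcription factor Ets1, which other cells also use, gave 756, 662 and 622 units. The junction cadherin Cdh5 had a mean of 555 units and Pecam1 240 units. Kdr and Erg were undetected, while the related receptor Flt1 was detected with a mean of 216 units.

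Macrophage genes were detected for 18 of 22 (81.8%), with a median level of 6.89 ± 0.07, below the medians of the Sertoli, Leydig, myoid, fibroblast and endothelial lists. The lysozymes Lyz1 and Lyz2, whose sequences are nearly identical, gave 1854, 3433 and 1972 units and 562, 1022 and 704 units, both highest on replicate 2. Mpeg1, a pore-forming protein of phagocytes, gave 779, 611 and 890 units, Laptm5, a lysosomal protein of blood cells, gave 636, 617 and 622 units, and the chemokine Pf4 gave 359, 325 and 493 units. The mannose receptor Mrc1 gave 335, 355 and 417 units. The growth factor receptor Csf1r gave 205, 210 and 198 units, and the complement genes C1qb and C1qc had means of 271 and 264 units. Fcer1g, Itgam and Cd163 were undetected.

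**Figure D1:**
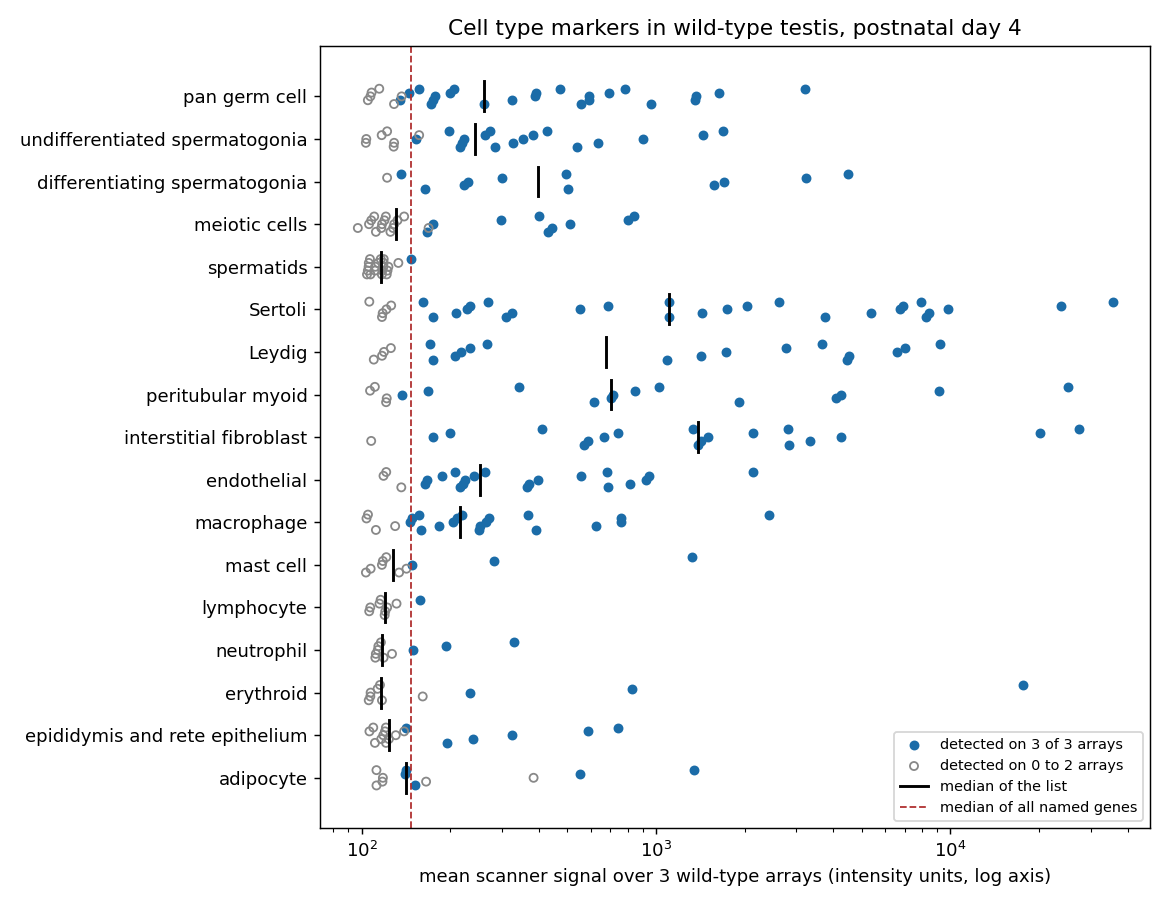
Each point is 1 gene of a cell type list, placed by its mean scanner signal over the 3 wild-type arrays (log axis, intensity units). Filled points were detected on 3 arrays and open points on 0 to 2, black bars are list medians and the dashed line is the median of all named genes. Sertoli, Leydig, myoid and fibroblast lists have medians above 600 units, while spermatid and blood cell lists lie near the detection limit.

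Most lists of cells from outside the testis cords and interstitium had few detected genes. Mast cell genes were detected for 3 of 10, neutrophil genes for 3 of 10, lymphocyte genes for 1 of 9, liver genes for 3 of 12, neuron and Schwann cell genes for 2 of 11 and skeletal muscle genes for 4 of 11. All these shares were below the 52.2% of all named genes. The mast cell list was led by Hdc, which makes histamine, at 1281, 1474 and 1235 units. Of the mast cell proteases, Tpsab1 was detected on all 3 arrays, Cpa3 and Cma1 on 2 each, and Mcpt4, Mcpt2 and Tpsb2 on none. S100a8 gave 351, 394 and 246 units and S100a9 223, 194 and 163 units, both lowest on replicate 3. Of the neutrophil granule genes, Camp was detected on all 3 arrays with a mean of 150 units, Ltf on 1, and Elane, Mpo and Ngp on none. The fetal protein gene Ahsg gave 594, 617 and 438 units and Afp 233, 224 and 308 units, whereas albumin (Alb) was undetected.

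Ovary genes were detected for 4 of 14 (28.6%) and kidney and adrenal genes for 5 of 11 (45.5%), beside 52.2% of all named genes. Esr2, an estrogen receptor that the testis also expresses, gave 337, 314 and 240 units, and the granulosa factor Foxl2 and the egg coat genes Zp1, Zp2 and Zp3 were undetected. The red cell list had 3 of 10 detected, with strong globin signals. Its brightest member was Hba-a1, given above, and the beta globins Hbb-bt and Hbb-bs, which are outside the list and have closely similar copies, gave 11516, 19446 and 17607 units and 11758, 16674 and 17484 units. All of these were lowest on replicate 1. The beta globin probe named Hbb-b2 gave 540, 763 and 1188 units, and Alas2, the first enzyme of red cell heme synthesis, gave 188, 202 and 312 units. The 3 detected red cell genes were lowest on replicate 1, beside 2778 of all 9944 detected genes. Epithelial genes of the rete and epididymis were detected for 6 of 17, led by Wfdc2 at 711, 581 and 934 units, Krt8 at 549, 601 and 608 units and Krt18 at 266, 326 and 379 units. Krt18 is also in the Sertoli list. Of the epididymal genes, Lcn8 was detected on all 3 arrays with a mean of 141 units, Lcn5 on 1, and Rnase10, Lcn9 and Spint4 on none.

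The sample labels were also checked against genes of the sex chromosomes, a choice made after values were seen. All 4 probes of Xist, the RNA that silences an X chromosome in female cells, were undetected, and the Y-linked demethylase Kdm5d gave 236, 268 and 259 units by 1 probe and 98.0, 107 and 106 units, undetected, by the other. Uty was detected on all arrays by 2 of its 4 probes, both probes of Eif2s3y were detected on 1 array only, and Sry, the sex-determining gene, was undetected. Of 711 genes on the X chromosome 360 (50.6%) were detected on all arrays, beside 52.4% of autosomal genes, and of 19 on the Y chromosome 3 (15.8%) were.

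General growth genes were bright. Glycolytic enzymes were detected for 14 of 14, with a median level of 10.40 ± 0.13, and cell cycle genes for 19 of 21, with a median of 10.13 ± 0.04. Cenpa, the centromere histone, gave 11876, 10184 and 10442 units, and the DNA helicase subunit Mcm5 gave 4372, 4537 and 4141 units. Neither gene differed much between arrays. Imprinted growth genes were detected for 9 of 12, with a median of 11.20 ± 0.25: besides Dlk1 and Igf2 they included Ndn at 9559, 10886 and 7819 units and the cell cycle inhibitor Cdkn1c at 4146, 4791 and 3965 units. All 9 detected members were lowest on replicate 3, beside 4145 of all 9944 detected genes. Cholesterol synthesis genes were detected for 13 of 14, with a median of 8.07 ± 0.07, led by Fdps at 2863, 2597 and 2921 units.

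Gene families, grouped by symbol after their values were seen, ranged from nearly complete to nearly absent detection. The share over all named genes was 52.3%. Complex I subunits of the respiratory chain were detected for 42 of 44 genes (95.5%), proteasome subunits for 35 of 40 (87.5%) and ribosomal proteins for 60 of 71 (84.5%). Collagens were detected for 31 of 41 (75.6%) and Zfp zinc finger genes for 200 of 331 (60.4%). Homeobox genes of the Hox clusters were detected for 16 of 39. The brightest were Hoxd9 at 1228, 1316 and 1001 units and Hoxd8 at 1084, 1303 and 999 units, which lie next to each other in one cluster, followed by Hoxd4 at 970, 819 and 644 units. Of 9 reproductive homeobox genes named Rhox, 4 (44.4%) were detected. Rhox13 and Rhox10 of germ cells gave 360, 314 and 742 units and 190, 185 and 406 units, both highest on replicate 3. The Zfp, Hox and Rhox shares lay nearest that of all named genes.

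Receptor families of the senses served as a floor. Of 1078 olfactory receptors 3 (0.278%) were detected on all arrays, the brightest being Olfr724 at 156, 163 and 162 units, and of 171 vomeronasal and 32 bitter taste receptors none was. Among 42 beta-defensins 5 were detected, of which Defb19 and Defb36 were bright, the second at 5367, 4087 and 5980 units, and Defb42 gave 988, 595 and 954 units. Of 87 cytochromes P450 18 were detected, led by Cyp17a1.

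**Figure D2:**
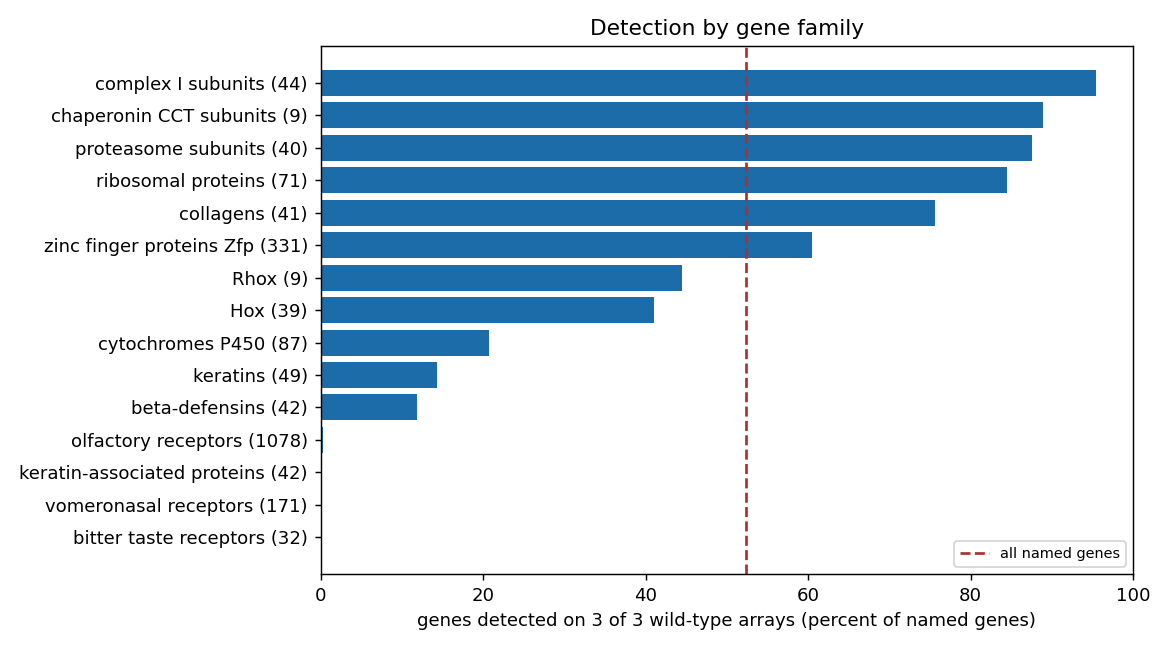
Bars give the percent of named genes in each family that were detected on 3 of 3 wild-type arrays, with the number of named genes in brackets. The dashed line marks all named genes at 52.3%, and sensory receptor families lie at or close to 0.

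The 3 arrays agreed closely on the whole. Over the 17712 detected probes the Pearson correlation of log2 levels was 0.990 between replicates 1 and 2, 0.983 between replicates 1 and 3, and 0.981 between replicates 2 and 3, across probes, which are not independent replicates. The median SD over arrays was 0.18 log2 units, and it was 0.24 for probes under 200 units and 0.11 for probes over 2000 units. On the scanner scale the median variation between arrays was 8.97% of the mean, and the median standard error of a probe's bead average within an array, which covers the beads alone, was 5.01% of it. The SD exceeded 0.5 for 762 probes, and for 511 of these (67.1%) replicate 3 was the array farthest from the median. Replicate 1 was farthest for 104 and replicate 2 for 147.

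The general germ cell list showed the same array apart. Of its 23 detected members 22 were highest on replicate 3, and their mean difference from the 3-array mean was 0.47 log2 units on replicate 3, against -0.18 on replicate 1 and -0.29 on replicate 2. Over all 9944 detected genes 3391 were highest on replicate 3. The differentiating list gave 0.48, -0.23 and -0.26 for replicates 3, 1 and 2. The undifferentiated list was more even, at 0.14, 0.05 and -0.19. Sertoli markers differed little, at -0.05 on replicate 3, 0.09 on replicate 1 and -0.03 on replicate 2, and Leydig markers were at -0.21, 0.11 and 0.10. Whether replicate 3 held more germ cells or more of their RNA per cell cannot be told apart.

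**Figure D3:**
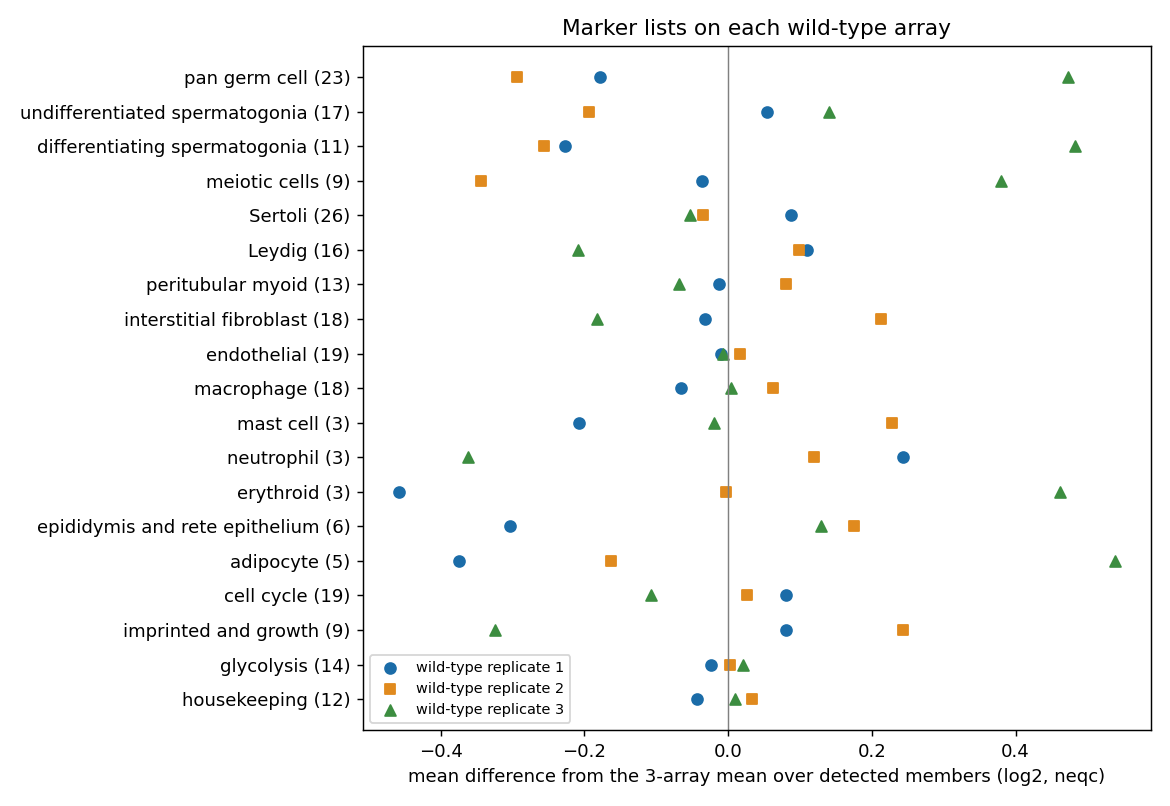
For each list, with the number of members detected on 3 arrays in brackets, points give the mean difference of those members from their own 3-array mean on each wild-type array (log2 units, neqc). Replicate 3 lies highest for the germ cell lists (0.47 for general markers), for fat cell genes (0.54) and for the 3 detected red cell genes (0.46). Replicate 2 lies highest for fibroblast genes (0.21).

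Fat cell genes moved with the same array. All 5 detected members of the fat cell list were highest on replicate 3, beside 3391 of all 9944 detected genes. Their mean difference was 0.54 log2 units there, against -0.37 on replicate 1 and -0.16 on replicate 2. Some of them lay close to the detection limit: Lep gave 126, 136 and 161 units, Plin1 gave 123, 140 and 163 units by its detected probe, and Pparg had a mean of 151 units. The summed signal of the 11 named members was 5211 units on replicate 3, against 2330 and 2488 on replicates 1 and 2. Adipoq, which encodes the fat cell hormone adiponectin, gave 941 units on replicate 3 and was undetected on the other 2 arrays at 101 and 109 units. Lpl, the lipase that feeds fatty acids to tissues, gave 894, 867 and 2286 units. Plin4, of lipid droplets, gave 94.3, 111 and 291 units and was detected on replicate 3 alone. Fabp4, Retn and Ucp1 were undetected on every array. What part the tissue that expresses these genes has in the germ cell values of replicate 3 was not tested.

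Scd1, a fatty acid desaturase that fat cells make in quantity, had the largest SD of all named genes detected on 3 arrays. It gave 210, 192 and 2418 units, high on replicate 3 alone, with standard errors over beads between 7.69 and 117 units. Clic6, a chloride channel protein, gave 226, 262 and 793 units. Radx, which acts at replication forks, gave 135, 162 and 317 units, Exoc7, of the exocyst, gave 199, 177 and 440 units, and Gm44 gave 138, 156 and 302 units. All of these were highest on replicate 3. Fam135a differed by 1 probe only: that probe gave 156, 165 and 557 units while a second probe gave 554, 560 and 593 units and the remaining probe was undetected.

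Other variable genes ran the opposite way. Pnmt, the adrenaline-forming enzyme, gave 581, 397 and 189 units. The chemokine Ccl17 gave 1277, 673 and 335 units, and Zg16, a lectin of secretory granules, gave 1191, 1010 and 353 units. All 3 were lowest on replicate 3. Cbln1, a secreted protein named after its values were seen, gave 5171, 4824 and 1777 units. Upk3b, a uroplakin of surface epithelia, was instead lowest on replicate 1, at 138, 351 and 275 units by its most variable probe, and the lymphoid chemokine Ccl21c, which has nearly identical gene copies, was highest on replicate 2 at 154, 270 and 149 units.

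**Figure D4:**
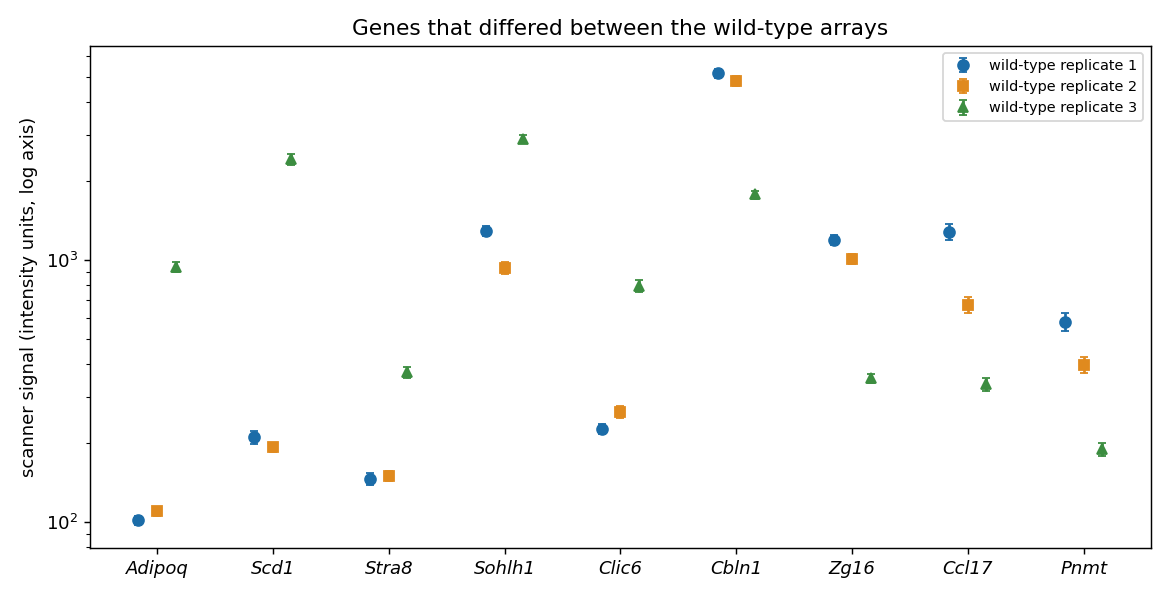
Scanner signal of selected genes on each wild-type array (log axis, intensity units), by the brightest probe, with error bars of 1 standard error over beads. Replicate 3 lies above the other arrays for Adipoq, Scd1, Stra8, Sohlh1 and Clic6 and below them for Cbln1, Zg16, Ccl17 and Pnmt. Ccl17 and Pnmt fell stepwise from replicate 1 to replicate 3. The genes were selected, and Upk3b and Ccl21c, which varied in other ways, are not shown.

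Detected genes differed from undetected genes in their promoter sequence. RefSeq promoter windows of 300 bases, with 250 before and 50 after the start, were found for 15237 named genes. A window was called CpG-rich where CG pairs reached 0.6 of the number that its base composition gives. Of 8071 genes detected on 3 arrays 73.9% had a CpG-rich window, against 23.6% of 5317 genes detected on none and 52.3% of all. The hexamer TATAAA, on either strand, was in 7.17% of windows of detected genes, against 20.6% for undetected genes and 12.5% for all. Among detected genes split into 5 equal groups by brightness, from dimmest to brightest, 61.5%, 73.0%, 77.3%, 78.2% and 79.3% had a CpG-rich window. The share of CpG-rich windows thus differed less between brightness groups than between detected and undetected genes.

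**Figure D5:**
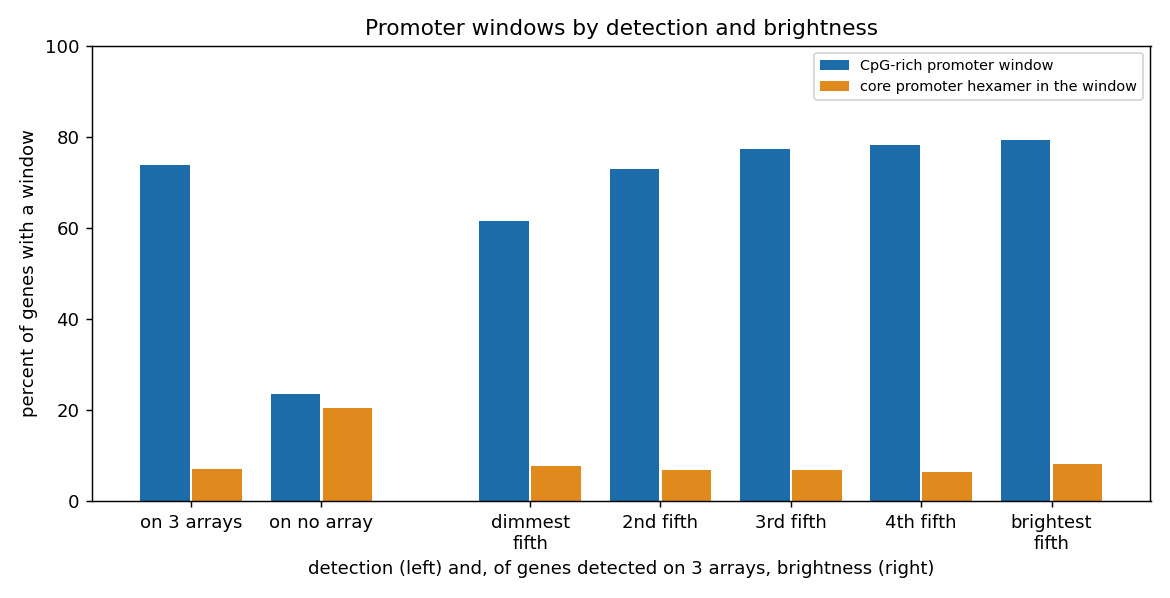
Bars give the percent of genes whose promoter window was CpG-rich (blue) or held the hexamer TATAAA (orange, labelled core promoter hexamer). They are given for genes detected on 3 arrays and on none (left pair of groups) and for detected genes by brightness (right). The hexamer shares were not corrected for base composition. CpG-rich windows made up 73.9% for detected and 23.6% for undetected genes.

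Markers detected on all arrays did not share 1 promoter type. Of the general germ cell markers with a window 10 of 19 (52.6%) were CpG-rich, and of glycolytic genes 9 of 14 (64.3%). Of cell cycle genes 13 of 17 (76.5%) were, and of ribosomal protein genes 45 of 49 (91.8%). The share over all genes detected on 3 arrays was 73.9%, and the cell cycle share lay nearest it. For Sertoli, Leydig, myoid, endothelial and macrophage lists fewer than 80% of detected members had a window, so no share is given. The 250 bases before the start are shown for 5 bright or defining markers, chosen after their values were seen to set germ cell genes beside somatic ones, on build GRCm38.p6 from RefSeq, with CG pairs in capitals. The windows, read 5′ to 3′ along the gene, are chr17:50293621-50293870 on the minus strand for Dazl, chr13:112652311-112652560 on the minus strand for Ddx4, chr1:75507359-75507608 on the plus strand for Inha, chr19:34255374-34255623 on the minus strand for Acta2 and chr10:117292869-117293118 on the minus strand for Lyz1.
Dazl: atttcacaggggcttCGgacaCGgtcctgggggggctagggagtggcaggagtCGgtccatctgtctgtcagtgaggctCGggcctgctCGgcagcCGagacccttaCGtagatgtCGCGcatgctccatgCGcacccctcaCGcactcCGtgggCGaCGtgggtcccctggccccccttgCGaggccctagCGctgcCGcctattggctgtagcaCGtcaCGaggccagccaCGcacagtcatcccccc
Ddx4: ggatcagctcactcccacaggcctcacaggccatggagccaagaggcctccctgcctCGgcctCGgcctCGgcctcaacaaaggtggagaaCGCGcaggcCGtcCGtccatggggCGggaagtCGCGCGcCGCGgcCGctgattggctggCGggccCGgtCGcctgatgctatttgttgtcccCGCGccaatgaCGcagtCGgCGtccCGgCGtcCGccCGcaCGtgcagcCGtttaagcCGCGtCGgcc
Inha: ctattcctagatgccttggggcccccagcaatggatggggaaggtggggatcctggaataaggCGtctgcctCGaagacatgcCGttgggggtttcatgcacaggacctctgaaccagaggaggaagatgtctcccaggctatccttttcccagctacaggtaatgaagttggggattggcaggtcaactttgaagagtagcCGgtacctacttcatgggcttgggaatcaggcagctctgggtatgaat
Acta2: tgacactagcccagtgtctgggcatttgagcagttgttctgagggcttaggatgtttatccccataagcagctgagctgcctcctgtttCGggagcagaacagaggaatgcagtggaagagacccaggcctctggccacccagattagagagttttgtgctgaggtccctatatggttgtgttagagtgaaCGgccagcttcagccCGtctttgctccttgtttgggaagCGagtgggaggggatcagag
Lyz1: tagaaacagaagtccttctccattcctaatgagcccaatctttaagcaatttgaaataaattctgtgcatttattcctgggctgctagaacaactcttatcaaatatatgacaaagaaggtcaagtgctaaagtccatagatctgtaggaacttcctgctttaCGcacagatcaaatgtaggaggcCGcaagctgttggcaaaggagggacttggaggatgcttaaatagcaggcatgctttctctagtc
The germ cell genes Dazl and Ddx4 held 20 and 31 CG pairs, and their 300-base windows had observed over expected CG ratios of 0.80 and 0.98. Inha of Sertoli cells, Acta2 of myoid cells and Lyz1 of macrophages held 4, 4 and 2 pairs, with ratios of 0.22, 0.27 and 0.14. The examples were picked and say nothing of their lists.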

How the data were processed

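Total RNA of whole testis was amplified to biotin-labelled cRNA and read on Illumina bead arrays, per the labels' protocols. The deposited scanner values, per the file headers, are a bead-averaged intensity with its standard error, a bead count and a detection p-value on every array, and the intensities were not normalized. A second deposited table holds the authors' normalized intensities, which ranked the probes as the scanner values did on each array (Spearman correlation 1). The submitters' processing notes name BeadStudio.

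Log2 levels, their SDs and counts of list members highest or lowest on an array came from neqc in limma 3.58.1 (R 4.3.3). It was run on the 3 wild-type arrays: background from the detection p-values, an offset of 16, quantile normalization and log2. Signals of single genes in units, their order over the arrays and their fold differences were not normalized. Of 45281 probes 34885 had 1 gene symbol in the platform annotation, 18 had several and 10378 had none. A gene was read by its probe with the brightest mean. The rule for named genes took the 30 brightest, up to 6 detected members with the highest mean and the undetected members of each cell type list, the 12 with the largest SD, and Foxo1, Foxo3 and Foxo4. The 28 lists hold 489 symbols, 433 with a named probe. Of these genes, 15 stand in more than 1 list. Pax8 is undetected by its brightest probe and detected by another. Lists and genes were chosen with earlier results of these data known. With 1 group of 3 arrays no test was made. The calculation of spread was tested on simulated data. Every column of values was mapped to a sample. Precision is limited by the number of arrays. Alternatives were a detection threshold of 0.01, all probes of a gene, other normalizations, each array left out and other promoter settings.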

Additional observations from a re-analysis of the deposited data

How the results depend on the processing

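Counts of detected probes and genes kept within 1.5 times under the alternatives, except that 6075 genes had every probe detected, against 9960 with any. Of the 28 lists, 11 had a count that moved further. Counting detection on any array gave 14 meiotic genes against 9, 4 spermatid against 1, 5 mast cell, neutrophil and liver against 3 each, 4 lymphocyte against 1, 10 epididymis and rete against 6, 8 fat cell against 5, 5 neuron and Schwann against 2 and 7 ovary against 4. A threshold of 0.01 left 0 spermatid, 2 fat cell, 1 neuron and Schwann, 2 ovary and 3 kidney and adrenal genes, the last against 5. Without replicate 1 there were 5 mast cell genes, and without replicate 3 there were 2 lymphocyte genes. The general germ cell, spermatogonial, Sertoli, Leydig, myoid, fibroblast, endothelial and macrophage counts moved by less. With 1 array left out 10218 to 10261 genes and 18339 to 18438 probes were detected on both others. List medians above that of all named genes depended on the background correction, which spreads dim values, and on the probe taken. For general germ cell markers the difference was 1.72 log2 units, 0.83 on the median-scaled scanner signal, 0.84 in the authors' values and 1.39 over all probes of a gene. In the same order it was 4.30, 2.87, 2.94 and 3.51 for Sertoli, 3.05, 1.88, 1.92 and 1.72 for Leydig, 3.63, 2.27, 2.32 and 1.85 for myoid, and 1.27, 0.56, 0.56 and 0.72 for macrophage markers. For endothelial markers it was 1.65, 0.78, 0.79 and 1.58. All stayed above 0. The order of lists depended on the probe taken: over all probes of a gene the general germ cell value lay below the endothelial value. In the other settings of this row of values it lay above. With each array left out in turn the Sertoli value ran from 4.01 to 4.41 and the myoid value from 3.46 to 3.61. The fat cell list lay at -0.14 and turned to 0.0117 without replicate 1 (-0.7827 without replicate 3). The general germ cell list spanned 0.77 log2 units over the arrays, 0.53 on the median-scaled signal and 0.57 in the authors' values. The median SD between arrays was 0.12 in the authors' values, against 0.18. Genes detected on 3 arrays had CpG-rich windows in 53.4% at a minimum ratio of 0.75, 75.1% at a detection threshold of 0.01 and 77.5% with any window of the gene, a setting added after seeing the data. For undetected genes the share was 15.3% at 0.75 and 25.1% with any window. Brightness near the detection limit, about 130 units, bounds what dim markers can show. No paired analysis was possible because the results come from no test between groups.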
